A study of Mus musculus castaneus and Mus musculus domesticus and Mus musculus with 11 samples.

Results

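The transcriptomes of motor neuron cultures from a CAST and 129 hybrid line were compared with those of its CAST parental strain. The comparison used 6 of the 11 labelled samples: 3 hybrid libraries, labelled 129CAS, and 3 libraries of CAST/EiJ, a wild-derived inbred strain written CAST here. They were chosen by their strain labels. The label 129CAS joins the names of both strains and gives neither the direction of the cross nor the number of lines. All 3 libraries of 129S6/SvEv, a laboratory strain written 129 here, were kept in the same model as a further reference. CAST samples 7 and 8 are part of a separate count table, not analysed here. The series was set up as a stem cell-derived culture model of variation in neurite growth among mice. Every sample is labelled as motor neuron, and polyadenylated RNA was sequenced. The labels say neither whether the cells were purified nor whether each library had its own culture. The p-values therefore measure the spread between these libraries, which may be technical.

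A first-generation hybrid carries 1 chromosome set from each parental strain. Where the parents differ through sequence near a gene, each allele tends to keep its own output in the hybrid, whose level then lies between the parents. Read counting adds a second layer: where the exons of 2 genes overlap, or where genes are near-identical copies, the same read can be given to either gene, and the outcome depends on the rules of the counting program. Genes whose exons share at least 1 base with an exon of another gene in the matrix were therefore treated apart.

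Hybrid libraries 1 to 3 held 14502335, 7763077 and 12362162 counts, and CAST libraries 1 to 3 held 11167254, 16374911 and 13555712. In CAST 1 and hybrid 2, long genes were scarce relative to short ones: relative log2 expression fell by 0.57 and 0.66 per doubling of exon length over 14009 genes. Hybrid 3 had a slope of −0.26, and all remaining libraries had slopes of 0.09 to 0.34. These slopes move with several results below, and their part was not tested.

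Of 14839 tested genes, 891 passed an adjusted p of 0.05 in edgeR's quasi-likelihood test, 654 higher (4.41%) and 237 lower (1.60%) in the hybrid. Most of these calls sat in genes with overlapping exons. Among 3838 such genes, 572 passed (14.9%), 472 higher (12.3%) and 100 lower (2.61%). Among 10992 genes without overlap, 311 passed (2.83%), 182 higher (1.66%) and 129 lower (1.17%). The share called rose with the extent of the overlap. It was 5.58% of 2224 genes with under 10% of their exonic bases overlapped, 18.2% of 1283 genes with 10 to 50%, and 64.7% of 331 genes with 50% or more. In the last class, 198 genes were higher and 16 lower, and the median log2 fold change was 5.26, against −0.08 over all tested genes. Overlap on the same strand (22.2% of 762 genes) and on the opposite strand (12.4% of 2867 genes) both carried calls, as did overlap on both strands (22.5% of 209). Protein-coding genes with overlap were called in 11% of cases, other gene types with overlap in 48.0%.

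Genes sharing sequence without overlap were also called more often in these counts. Of 1067 genes without overlap that shared at least 10% of their 31-base words with transcripts of another gene, 106 were called (9.93%), 43 higher and 63 lower. Below that share, 204 of 9924 were called (2.06%). Genes with no exonic overlap with any annotated gene and under 10% shared words are called distinct genes here, a class defined after the values were seen. Of 8726 distinct genes, 169 were called (1.94%), 115 higher (1.32%) and 54 lower (0.619%). Without CAST 3 the count of distinct genes called higher was 49, without CAST 2 it was 67, and the count called lower was 35 without hybrid 3.

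**Figure D1:**
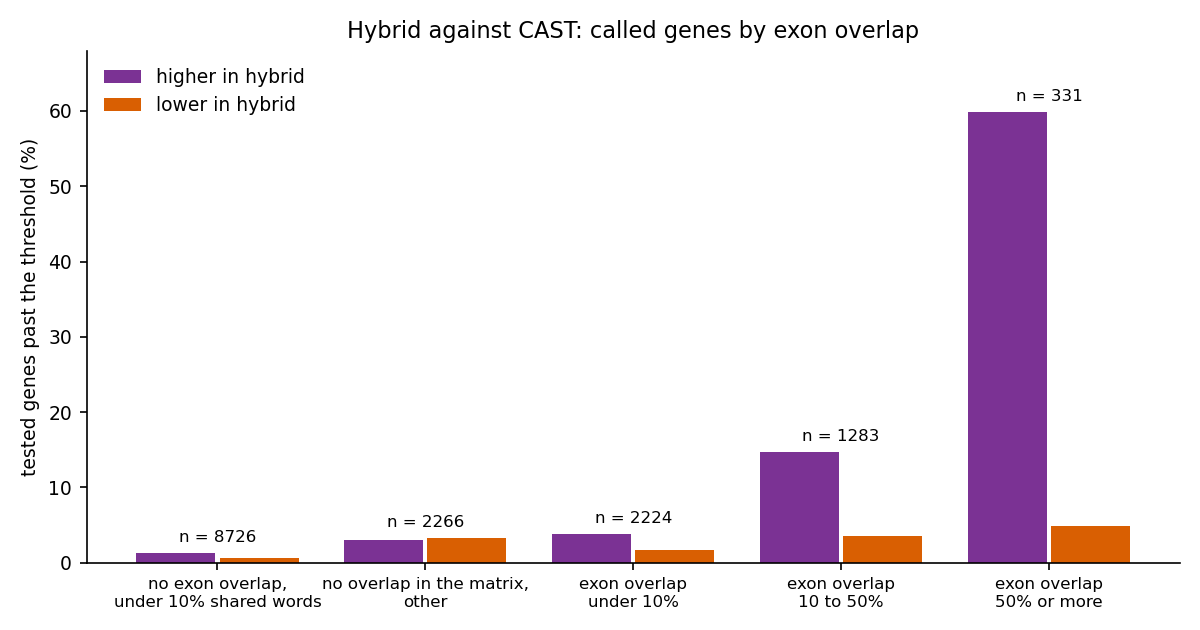
Percent of tested genes called higher (purple) or lower (orange) in the hybrid than in CAST, by exon overlap and shared sequence; n is the number of tested genes in each class. The second class holds genes that overlap no exon of another gene in the matrix but overlap another annotated gene or share 10% or more of their words. Called genes are 64.7% of the class with the most overlap and 1.94% of distinct genes.

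Some of the largest differences lay in genes that share a locus. Gnas, the imprinted gene for the stimulatory G protein alpha subunit, stood at 226, 535 and 414 CPM, the count relative to the library total after TMM scaling, in hybrid libraries 1 to 3. It stood at 9168, 3165 and 2437 CPM in CAST 1 to 3. The groups did not overlap (log2 fold change −3.65, SE 0.70). The edgeR adjusted p was 0.0126. The call ended without hybrid 3 (adjusted p = 0.0535), with only the 6 hybrid and CAST libraries in the fit (0.0737), with the replicate number as a block (0.0787) and with an offset for exon length (0.0518). Gm20721, a predicted coding gene on the opposite strand of Gnas with 99.0% of its exonic bases shared, was at 2088, 5316 and 3147 CPM in the hybrid and at 3.72, 1.57 and 1.43 CPM in CAST (log2 fold change 10.63 ± 0.88, adjusted p = 0.000294). Gnas was low and Gm20721 high in every hybrid library relative to CAST. Summed over the locus, the hybrid libraries held 2314, 5850 and 3560 CPM and the CAST libraries 9171, 3167 and 2438 CPM, which overlap (log2 fold change −0.31 ± 0.66, adjusted p = 0.930).

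Myadm, which encodes the myeloid-associated differentiation marker, had no count in any hybrid library and 243, 302 and 301 CPM in CAST, at least 3415-fold lower against a floor of 3 counts over the group (adjusted p = 0.000236). At the prion locus, Prn, the annotated readthrough gene, was at 307, 123 and 167 CPM in the hybrid and at 0 in every CAST and 129 library. Prnp, the prion protein gene whose exons it contains, was at 162, 68.5 and 90.8 CPM against 208, 405 and 485 CPM and did not pass (log2 fold change −1.77 ± 0.54, adjusted p = 0.105). The sum of Prn, Prnp and the doppel gene Prnd overlapped between the lines (−0.23 ± 0.52, adjusted p = 0.936).

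Ddit3, which encodes the stress transcription factor CHOP, had no count in the hybrid and 119, 20.8 and 29.2 CPM in CAST (at least 553-fold lower, adjusted p = 0.00193). Its overlap partner Mars, the methionyl-tRNA synthetase, was at 108, 113 and 100.3 CPM in the hybrid and 148, 76.7 and 82.9 CPM in CAST. Mars did not pass (log2 fold change 0.06 ± 0.34, edgeR adjusted p = 0.966). Exon overlap covers 4.73% of the exonic bases of Ddit3 and 1.99% of those of Mars. Another coding gene annotated under the name Ddit3 overlaps the body of the one described here. The tested locus held 3 genes, and its sum gave −0.54 ± 0.41 (edgeR adjusted p = 0.728). Mars had the higher mean in CAST, at 103 CPM against 56.3 CPM for Ddit3, and so weighs more in this sum. Further genes of the stress response, chosen after their values were seen, did not pass: Atf4 stood at −0.76 ± 0.52, Trib3 at −1.73 ± 0.71 and Asns at −0.60 ± 0.57 on the log2 scale (adjusted p = 0.598, 0.262 and 0.742).

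Counts were summed over each group of genes linked by overlapping exons, an alternative added after seeing the data, which gave 2075 tested loci of 2 or more genes. Of these, 47 were called (2.27%), 34 higher and 13 lower. Of the 482 loci with at least 1 called gene, 47 were called after summing. Among the 38 loci that held both a higher and a lower gene, 4 were. In the same fit 194 of 11001 genes alone in their locus were called (1.76%), against 311 of 10992 in the fit by gene. Loci that passed after summing included Plp2 with Prickle3 (log2 fold change 4.74 ± 0.59, adjusted p = 0.00444). Plp2, an X-linked gene for a membrane proteolipid, was at 47.4, 122 and 32.8 CPM in the hybrid and 0 in CAST, and at 29.1, 30.7 and 19.02 CPM in 129. The CAST libraries alone held no Plp2 count. Pgam5, the mitochondrial phosphatase gene, was at 0 in the hybrid and at 109, 49.1 and 48.1 CPM in CAST, and its locus also passed (adjusted p = 0.00114).

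**Figure D2:**
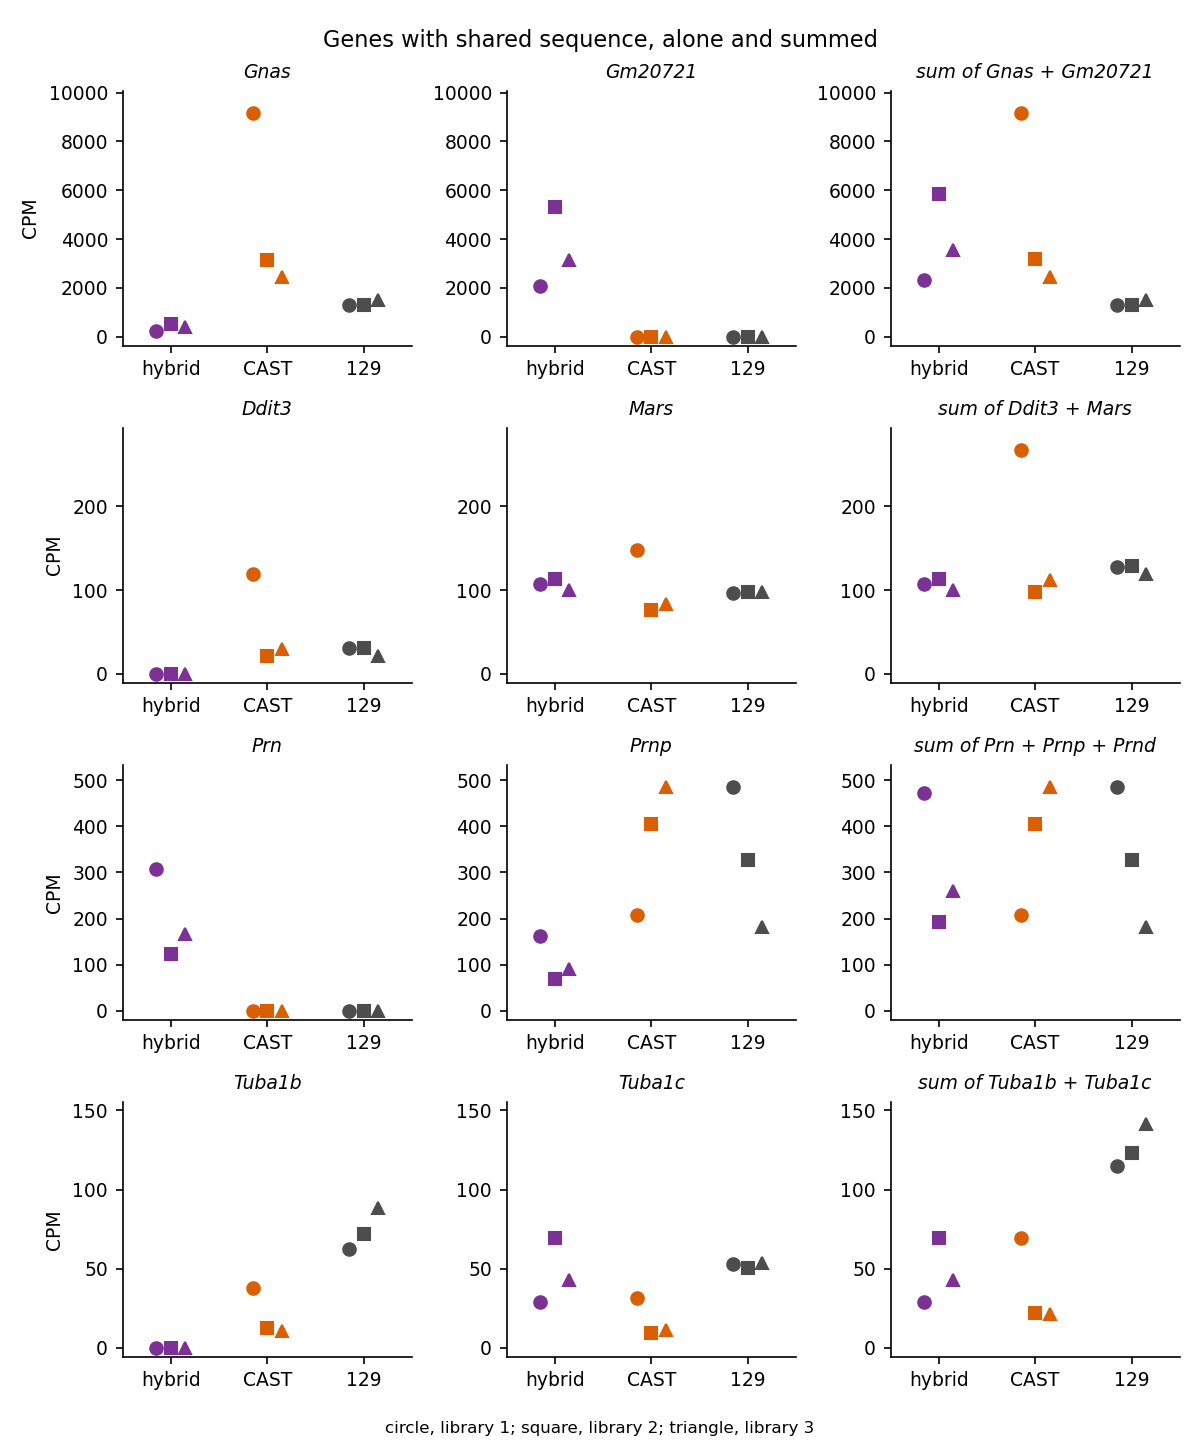
CPM in each library for 2 genes of a locus or copy pair and for their sum (the prion sum adds Prnd). The symbols stand for libraries 1 to 3 of each line, and each row has its own axis. Single genes separate the hybrid from CAST, as with Ddit3 at 0 in the hybrid, while the 4 sums drawn here overlap between hybrid and CAST. Mars alone also overlaps between hybrid and CAST. Sums of other loci and copies, such as Plp2 with Prickle3 or Entpd4 with Entpd4b, do not overlap.

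Genes at 0 in 1 line made a further class. In all, 113 genes had at least 10 counts in each hybrid library and none in any CAST or 129 library, and 97 of them had exon overlap. In the other direction, 58 genes had no count in the hybrid and at least 10 in each library of both parental lines, 26 of them with overlap. By the same limits, 3 genes were at 0 in CAST alone and 1 in 129 alone. Mitochondrial genes belong here: mt-Nd5, which encodes a subunit of complex I, was at 0 in the hybrid and at 1531, 1318 and 1076 CPM in CAST (adjusted p = 0.000236), with 75.1, 144 and 121 CPM in 129. mt-Nd6 on the opposite strand was at 0 in every hybrid and every 129 library, with 2.99, 12.6 and 12.9 CPM in CAST. mt-Ts1, the mitochondrial serine transfer RNA, was instead at 59.4, 80.9 and 75.6 CPM in the hybrid and at 3 counts in all of CAST, a count ratio of 971 with an exact 95% interval of 332 to 4709 that covers counting error only. The annotated body of mt-Ts1 overlaps that of the coding gene mt-Co1, and the coding gene mt-Co2 lies 75 bases away. Whether the reads of mt-Ts1 come from the transfer RNA itself was not tested. Its sequence is shown because the whole gene is 69 bases (GENCODE M21, GRCm38, chrM:6870-6938, minus strand, no base marked).
mt-Ts1: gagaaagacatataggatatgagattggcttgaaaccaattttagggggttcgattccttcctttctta
Of 13 listed mitochondrially encoded genes, only 3 were in the matrix, so the total mitochondrial output cannot be judged here. Matrix genes of the mitochondrion held 0.0060, 0.0084 and 0.0093% of counts in hybrid 1 to 3 and 0.133, 0.145 and 0.112% in CAST 1 to 3. The hybrid total of the 3 listed genes tested was 1.77, 0.978 and 1.75 CPM, all of it in mt-Cytb, the cytochrome b gene. mt-Cytb passed in edgeR (at least 22.1-fold higher, adjusted p = 0.0184). The call ended without CAST 2, CAST 3, hybrid 1 or hybrid 3 (adjusted p = 0.0609, 0.0569, 0.0602 and 0.0645). Nor did mt-Cytb pass with a replicate block (adjusted p = 0.144) or a length offset (0.0502).

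Near-identical copies without exon overlap in the matrix held further differences. Tuba1b, an alpha-tubulin gene of the microtubule wall, had no count in the hybrid and 37.9, 12.6 and 10.4 CPM in CAST, at least 211-fold lower (adjusted p = 0.00140). Tuba1c, its neighbour on chromosome 15, was at 29.3, 69.2 and 42.8 CPM in the hybrid and 31.5, 9.66 and 11.3 CPM in CAST and did not pass (log2 fold change 1.43 ± 0.51, adjusted p = 0.182). Their sums, 29.3, 69.2 and 42.8 CPM against 69.4, 22.3 and 21.7 CPM, overlap. Compared base by base from the first coding base, the 2 coding sequences are identical at 98.1% of 1347 positions, and 1105 of 1317 windows of 31 bases are the same in both (83.9%). Other genes named by the same rule also have close copies. Entpd4, a nucleotidase gene whose words are all found in other transcripts, was at 56.7, 66.2 and 69.0 CPM in the hybrid and 0 in all parental libraries. Its copy Entpd4b stood at 31.9, 37.4 and 33.2 CPM in the hybrid and 41.7, 21.6 and 22.8 CPM in CAST. Unlike the tubulin sums, those of Entpd4 and Entpd4b did not overlap, at 88.6, 104 and 102 CPM in the hybrid and 41.7, 21.6 and 22.8 CPM in CAST. Eif3j2, a translation initiation factor gene, was at 121, 96.1 and 103 CPM in the hybrid and at 1 count in all of CAST. Summed with its copy Eif3j1 it gave 125, 97.2 and 107 CPM against 7.02, 13.9 and 13.9 CPM, also without overlap. Tmem254c, Rnaset2a and Rsph3b rose in the hybrid from 0 counts in CAST, and their sums with Tmem254b, Rnaset2b and Rsph3a also lay above CAST in every hybrid library. Tmem254a, which also shares words with Tmem254c, was not found in the matrix and is missing from that sum. In the other direction Mfap1a, Rasl2-9, Ramac, Fbxo34, Hspa1b and Akr1b3 fell to 0. Of these 6, each shares 15.2% or more of its words with other genes. Mfap1b, Ran and Hspa1a, which share words with Mfap1a, Rasl2-9 and Hspa1b, were not found in the matrix. Reads given to those copies therefore cannot be seen here. Rps27, a ribosomal protein gene with 27.6% shared words, was at 3.61, 35.9 and 6.85 CPM in the hybrid and at 979, 155 and 146 CPM in CAST (log2 fold change −4.80 ± 1.09, adjusted p = 0.0299). In 129 it was at 3.11, 3.41 and 3.56 CPM, and the call ended without 129 1, 129 3, hybrid 1 or hybrid 3 (adjusted p = 0.0520, 0.0537, 0.0607 and 0.0962). It also ended with only the 6 libraries, with a replicate block and at a minimum count of 50 (adjusted p = 0.112, 0.114 and 0.0543). Rps27rt, which shares words with Rps27, was not found in the matrix either.

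Distinct genes share little or no exonic sequence with other genes. Among those averaging 5 CPM or more in the 6 libraries, 43 were higher and 20 lower in the hybrid. Those described next were chosen after their values were seen, apart from Il4, Inafm1, Mog, Rnf113a2, Rubcnl, Myo3a, Xk, Tas1r1 and Slc7a11, which the rule for named genes gave.

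Cd24a, encoding a glycoprotein anchored in the membrane of neuroblasts and other immature cells, was at 320, 262 and 451 CPM in the hybrid and 35.0, 20.3 and 19.5 CPM in CAST. Every hybrid library was above every CAST library, and the 129 libraries, at 247, 228 and 312 CPM, lay with the hybrid. The log2 fold change was 3.79 ± 0.44 (SE; edgeR adjusted p = 0.00113), and the call held in every alternative run. Astn2, the neuronal astrotactin linked to migration along glia, was at 40.3, 16.1 and 35.0 CPM in the hybrid and 1.86, 3.54 and 2.72 CPM in CAST (3.48 ± 0.46, adjusted p = 0.00203). Kin, a DNA- and RNA-binding protein gene, was at 11.1, 15.5 and 12.1 CPM against 1.65, 1.85 and 1.58 CPM (2.92 ± 0.34, adjusted p = 0.00120). For both, the 129 libraries (30.2 to 45.3 CPM and 12.2 to 14.9 CPM) again overlapped those of the hybrid, while CAST lay below both.

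Rec8, which encodes the meiotic cohesin subunit, was at 21.5, 23.3 and 32.8 CPM in the hybrid and 0.206, 1.80 and 0.287 CPM in CAST (4.99 ± 0.76, adjusted p = 0.00407). It was at 56.0, 30.9 and 32.1 CPM in 129. Its end lies 5 bases from the coding gene Ipo4, which did not pass (−0.18 ± 0.35, adjusted p = 0.896). Fabp5, a fatty acid binding protein gene, was at 40.9, 159 and 78.5 CPM in the hybrid, 14.9, 10.8 and 3.80 CPM in CAST and 105, 132 and 174 CPM in 129. Its difference from CAST (3.24 ± 0.64, adjusted p = 0.0155) was not called without CAST 2 (adjusted p = 0.0628), with only the 6 hybrid and CAST libraries (0.0593) or with a replicate block (0.0701).

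Other distinct genes were high in the hybrid against both parental lines. Slc7a11, the transporter subunit that brings cystine into the cell in exchange for glutamate, was at 235, 755 and 617 CPM in the hybrid and 0.206, 6.29 and 13.4 CPM in CAST. The 129 libraries were at 3.95, 7.62 and 9.997 CPM, so that the lowest hybrid library exceeded every parental one. The log2 fold change was 6.33 ± 1.20 (adjusted p = 0.0126, and 0.0635 without CAST 2). Slc3a2, the partner chain of the same transporter, was at 101, 78.1 and 87.3 CPM against 228, 123 and 167 CPM and did not pass (−0.96 ± 0.34, adjusted p = 0.176). Other genes of the antioxidant response, chosen after their values were seen, did not pass: Hmox1 gave −1.60 ± 0.54, Nqo1 −0.06 ± 0.54 and Gclm 0.14 ± 0.31 (adjusted p = 0.157, 0.978 and 0.913). The longest annotated Slc7a11 transcript, of 9223 bases, holds 221 words of 31 bases in the opposite direction, shared with the alpha-tubulin gene Tuba1a. They cover 491 bases, none of them coding, and Tuba1a itself was not found in the matrix. What these shared words contribute was not tested.

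Myo3a, a myosin gene known from the hair cells of the inner ear, was at 177, 121 and 161 CPM in the hybrid and 0.929, 2.25 and 0.788 CPM in CAST, and at 0.115 CPM or less in 129 (6.82 ± 0.65, adjusted p = 0.000648). Il4, the gene of the T cell cytokine interleukin 4, was at 19.7, 7.82 and 24.8 CPM in the hybrid with no count in any parental library. That is at least 268-fold higher than CAST (adjusted p = 0.00510). Mog, which encodes a glycoprotein of the myelin surface, was at 13.1, 5.59 and 22.5 CPM against no count in CAST (adjusted p = 0.0168, 0.0512 without CAST 2 and 0.0501 with a replicate block). Rubcnl, an autophagy gene, was at 17.97, 7.68 and 20.1 CPM in the hybrid and at 0.168 CPM or less in CAST (6.94 ± 1.06, adjusted p = 0.00429). All 4 genes stood at 2.25 CPM or less in every parental library, below each hybrid library. Rnf113a2 did likewise, at 5.87, 17.9 and 10.3 CPM with none in CAST or 129. Inafm1 was at 7.005, 23.2 and 16.0 CPM with none in CAST, but at 9.56, 10.2 and 11.7 CPM in 129.

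Several of these genes lay close to a coding gene. The nearest coding gene was 1015 bases from Il4 (Kif3a, a kinesin motor of axonal transport), 108 bases from Mog (Zfp57) and 425 bases from Inafm1 (Ccdc9). Kif3a, Zfp57 and Ccdc9 did not pass (log2 fold change −0.81, 0.47 and −0.03, edgeR adjusted p = 0.485, 0.722 and 0.979). Rnf113a2 overlaps the body of the coding gene Bbof1, which moved the same way. Bbof1 was at 8.91, 6.43 and 11.7 CPM in the hybrid and 4.13, 4.72 and 2.01 CPM in CAST. These groups did not overlap, but Bbof1 did not pass (1.32 ± 0.45, edgeR adjusted p = 0.160). Of the 115 distinct genes called higher, 23 lay at least in part within the body of a coding gene and 69 within 5 kb of one. For the 54 called lower these counts were 9 and 36 (16.7% and 66.7%), and for the 8557 not called 513 and 4240 (49.6% within 5 kb). The part of neighbouring transcription in these values was not tested.

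**Figure D3:**
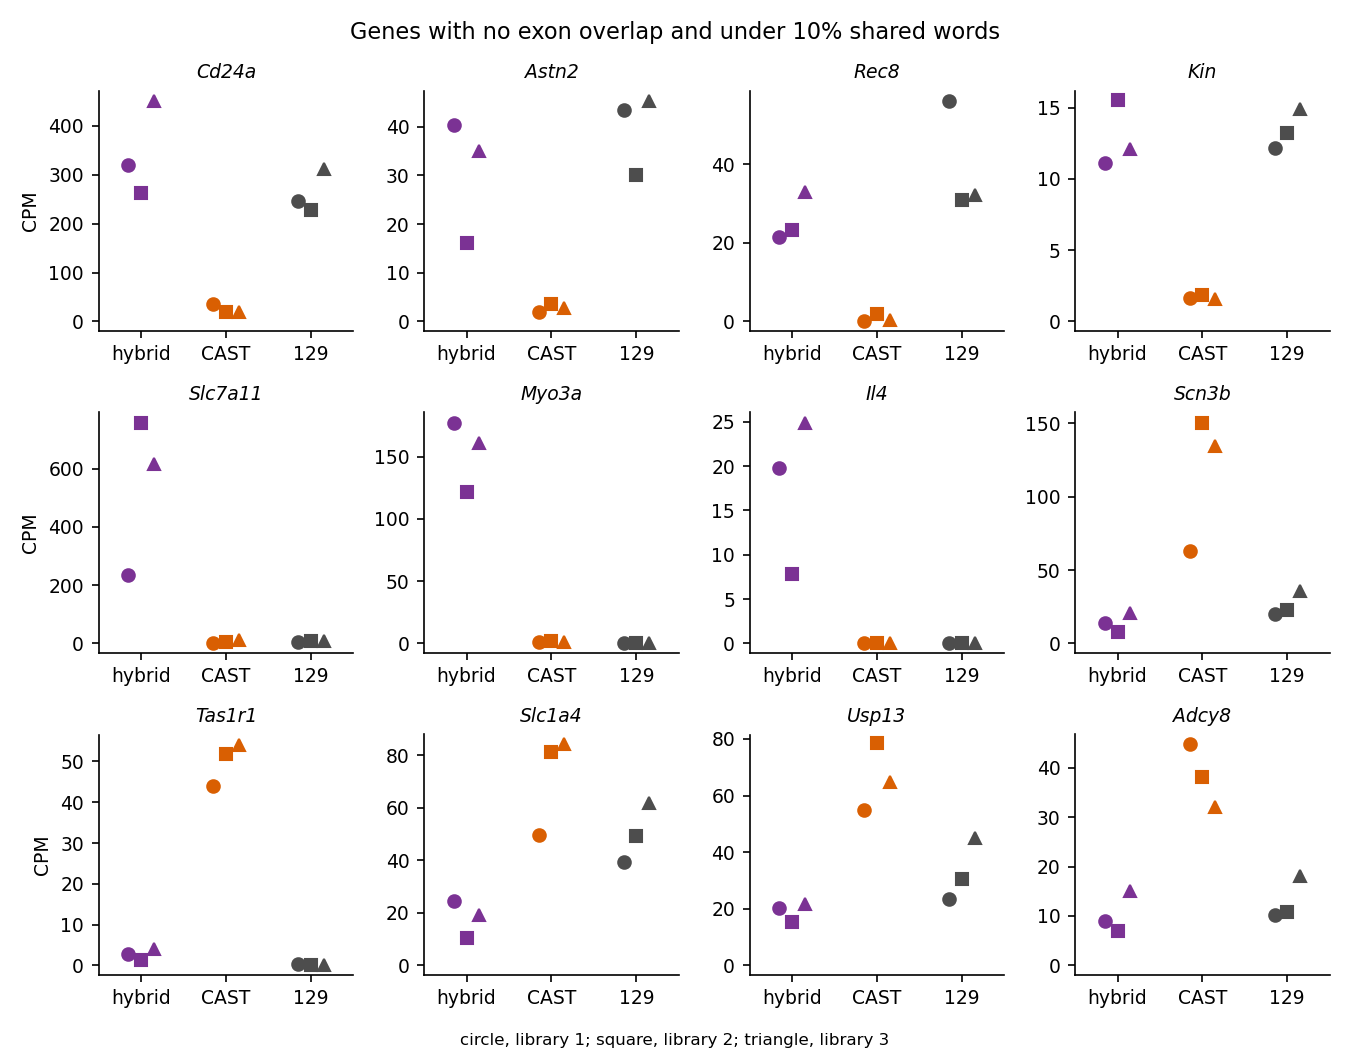
CPM in each library for 12 distinct genes called between hybrid and CAST; symbols stand for libraries 1 to 3 of each line. In the top row the hybrid lies with 129 and CAST is low, while Slc7a11, Myo3a and Il4 are high in the hybrid alone; Scn3b and the genes of the bottom row are highest in CAST.

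Of the distinct genes, fewer fell (54) than rose (115). Scn3b, the beta-3 subunit of voltage-gated sodium channels, was at 13.7, 7.96 and 21.0 CPM in the hybrid and 62.9, 150.3 and 135 CPM in CAST. The 129 libraries, at 20.01, 22.9 and 35.6 CPM, lay near the hybrid, and the log2 fold change was −3.02 ± 0.51 (adjusted p = 0.00650), called in every alternative run. Tas1r1, a subunit of the umami taste receptor, was at 2.69, 1.26 and 4.12 CPM in the hybrid and 44.1, 51.7 and 53.9 CPM in CAST, with 0.389 CPM or less in 129 (−4.19 ± 0.58, adjusted p = 0.00264). The adjacent gene Zbtb48, 243 bases away, was at 7.50, 13.6 and 10.1 CPM against 24.0, 23.4 and 21.2 CPM and did not pass (−1.14 ± 0.33, adjusted p = 0.0854). For both called genes the hybrid libraries lay below all of CAST.

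Slc1a4, a carrier of neutral amino acids, was at 24.7, 10.6 and 19.1 CPM in the hybrid, 49.7, 81.3 and 84.3 CPM in CAST and 39.5, 49.1 and 61.8 CPM in 129. Its fall (−1.98 ± 0.41, adjusted p = 0.0185) put the hybrid below both parents, and the call ended without CAST 2, CAST 3, hybrid 2 or hybrid 3 (adjusted p = 0.0668, 0.0660, 0.0534 and 0.0656). Usp13, a deubiquitinase gene, was at 20.2, 15.5 and 21.7 CPM against 54.8, 78.4 and 64.9 CPM (−1.79 ± 0.35, adjusted p = 0.0144), and 0.0592 and 0.0549 without CAST 2 and hybrid 2. Adcy8, an adenylyl cyclase stimulated by calcium, was at 8.91, 6.99 and 15.1 CPM against 44.8, 38.2 and 32.0 CPM (−1.89 ± 0.40, adjusted p = 0.0219), with 0.0658, 0.0816 and 0.0730 without CAST 2, hybrid 1 and hybrid 2. Xk, the X-linked gene of a Kell-associated membrane protein, was at 0.283, 0 and 0.210 CPM against 1.24, 10.7 and 18.5 CPM (−5.71 ± 1.14, adjusted p = 0.0156). Its call ended without CAST 3, hybrid 2 or hybrid 3 (adjusted p = 0.0504, 0.0558 and 0.0597). With only the 6 libraries in the fit, Slc1a4 and Adcy8 also lost their calls (adjusted p = 0.0713 and 0.0655). With a replicate block all of Slc1a4, Adcy8, Usp13 and Xk did (adjusted p = 0.0774, 0.0535, 0.0569 and 0.0746).

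Set beside 129, the 43 distinct genes called higher with at least 5 CPM comprised 27 whose hybrid libraries were above every 129 library, 15 that overlapped 129 and 1 below it. The 20 called lower comprised 10 below every 129 library, 7 that overlapped and 3 above. By their means, 13 of the 63 lay between the parental means, 35 above both and 15 below both. The choice of genes that differ from CAST shapes these counts, and they are given as a description.

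The X chromosome departed from the autosomes. Over 370 distinct X-linked genes the median log2 fold change was 0.30, with 269 positive (72.7%), while over 8355 distinct autosomal genes it was −0.11, with 42.6% positive. On the X chromosome 11 were called higher and 2 lower, and on the autosomes 103 higher and 52 lower. The difference between these shares was not tested, and over all distinct genes they were 1.32% and 0.619%. Dynlt3, a dynein light chain gene chosen after its values were seen, was at 213, 105 and 156 CPM in the hybrid and 50.1, 47.1 and 56.5 CPM in CAST, with 181, 176 and 141 CPM in 129 (1.63 ± 0.36, adjusted p = 0.0242). The highest adjusted p of Dynlt3 over the alternatives was 0.117, without CAST 2, and its call also ended without 129 1, 129 2, CAST 1, CAST 3, hybrid 1 or hybrid 3. It ended as well with only the 6 libraries, a replicate block, no filter or a length offset (adjusted p = 0.0951, 0.102, 0.0566 and 0.0661).

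By library, the X median stood above the median autosome by 0.36 in hybrid 1 and 0.31 in hybrid 3, and at −0.08 in hybrid 2. In CAST it stood at −0.39, 0.01 and −0.13, and in 129 at −0.02, 0.05 and 0.20. In hybrid 1 and hybrid 3 the X chromosome was above every autosome, which it was in no other library. CAST 1 and hybrid 2, whose length slopes were steepest, held the lowest X value of each line, and the part of those slopes was not tested. Over all genes without exon overlap, not only distinct ones, the median of X-linked genes exceeded that of the others by 0.40. This difference ranged from 0.27 to 0.50 over the alternatives. The number of X chromosomes in each line is not given in the labels, so their number and the line cannot be told apart.

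**Figure D4:**
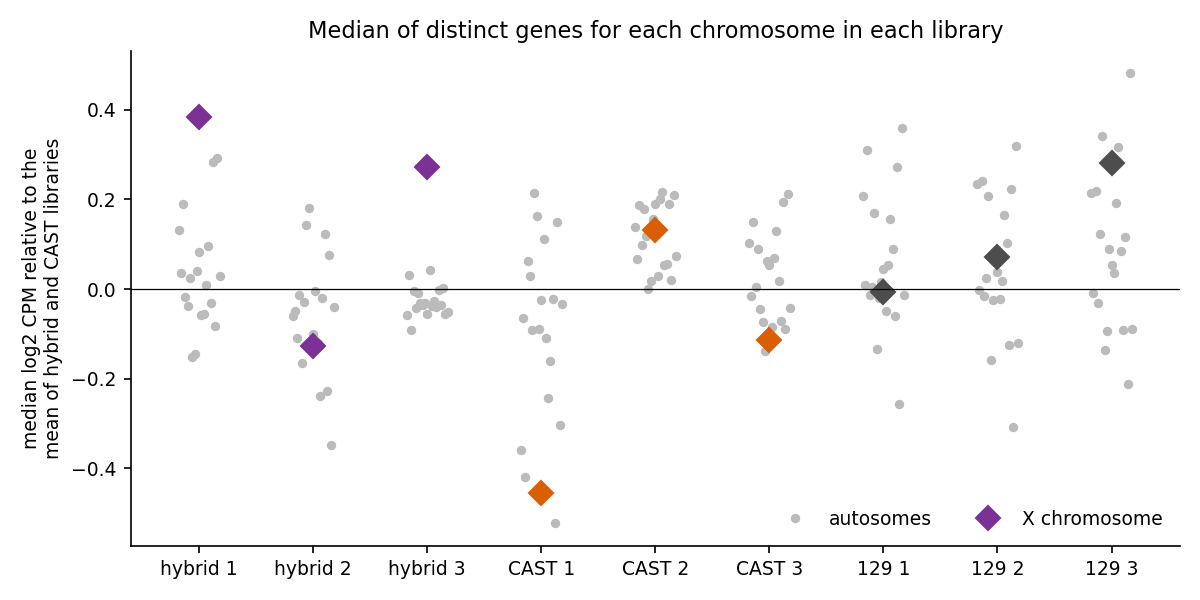
Median log2 CPM of distinct genes on each chromosome in each library, relative to each gene's mean over the hybrid and CAST libraries; diamonds are the X chromosome and grey points the 19 autosomes. The X chromosome is above every autosome in hybrid 1 and hybrid 3, and among the lowest chromosomes in CAST 1 and CAST 3.

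Gene lists covering motor neuron identity, axon biology, other cell types and stress held 854 genes in 46 lists. Of these, 704 were tested and 21 called. For comparison, 4.41% of all tested genes were called higher and 1.60% lower, and 2.83% of genes without exon overlap were called in either direction. Beyond the genes given by the naming rule, members described here were chosen after their values were seen. In bulk RNA, fewer cells of a type and less RNA per cell cannot be told apart. Mnx1, a defining transcription factor of motor neurons, was detected in all libraries at low levels: 0.495, 2.51 and 2.03 CPM in the hybrid and 3.41, 1.80 and 2.58 CPM in CAST (−0.64 ± 0.76, adjusted p = 0.809). Isl1, which specifies motor neurons with Lhx3, was at 17.4, 19.98 and 27.9 CPM against 62.4, 39.7 and 15.7 CPM (−0.85 ± 0.62, adjusted p = 0.633). Lhx3 was at 0.699 CPM or less in every hybrid and CAST library. Chat, which makes acetylcholine, was at 8.28, 11.04 and 6.36 CPM in the hybrid and 11.9, 8.93 and 5.52 CPM in CAST. Its log2 fold change of −0.04 ± 0.56 changed sign in 6 of the alternatives. Prph, the peripherin filament gene, was at 317, 1229.6 and 1073 CPM in the hybrid and 2996, 841 and 448 CPM in CAST. In each case the lines overlapped. Of 10 motor neuron transcription factors and 11 cholinergic genes tested, 0 were called by edgeR, and 0 had an unadjusted p under 0.05. DESeq2 and limma-voom also called 0 in both lists.

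Medians of lists of neuronal structure lay below 0, with 0 calls by edgeR, DESeq2 or limma-voom and 0 genes at an unadjusted p under 0.05 in edgeR. The axonal cytoskeleton list had 1 positive member of 17 and a median of −0.68, synaptic vesicle release in 1 of 21 with −0.69, and the receptors of neurotrophic factors in 0 of 13 with −0.59. These medians kept their sign over the 19 alternatives, between −0.98 and −0.45, −0.88 and −0.22, and −0.83 and −0.37. Map1b, a microtubule-associated protein of axons, was at 2369, 553 and 1372 CPM in the hybrid and 768, 3695 and 4201 CPM in CAST, which overlap. Gap43, the growth cone protein, was at 319, 631 and 973 CPM against 1361, 721 and 534 CPM (−0.44 ± 0.57, adjusted p = 0.830), and Stmn2, another growth cone marker, at 749, 2223 and 2353 CPM against 3219, 1206 and 815 CPM. Map1b, with the longest exons of these, was lowest in CAST 1 and hybrid 2, the libraries with the steepest length slopes, whose part was not tested.

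Some lists stood above 0. Posterior Hox genes, which set identity along the trunk, were positive in 12 of 13 cases, and their median was 0.90 (0.39 to 1.14 over the alternatives), with 0 called by edgeR, 1 by DESeq2 and 0 by limma-voom. Hoxb6 was at 44.2, 80.8 and 43.2 CPM in the hybrid and 25.3, 21.3 and 34.8 CPM in CAST, and did not pass. Hoxb3, an anterior Hox gene of the hindbrain, was at 19.95, 8.10 and 11.8 CPM against 31.7, 50.5 and 54.4 CPM (−1.77 ± 0.40, adjusted p = 0.0290). The Hoxb3 groups do not overlap, but its call ended without any one of 7 libraries, with a highest adjusted p of 0.105 among them, without hybrid 3. It also ended with only the 6 libraries (0.118) and with a replicate block (0.103). Gm28230, a predicted coding gene on chromosome 2, overlaps the bodies of Hoxd3 and Hoxd4, with 95.8% of its exonic bases overlapped. It also shares words with Hoxb3, which lies on chromosome 11. Gm28230 was called higher, at 16.2, 26.1 and 82.5 CPM against 0.430 CPM or less in CAST (7.35 ± 0.84, edgeR adjusted p = 0.00117). Hoxd3 was at 1.98, 1.82 and 7.41 CPM against 4.75, 8.14 and 8.67 CPM and did not pass. The sum of Hoxb3, Gm28230 and Hoxd3 was 38.1, 36.0 and 102 CPM in the hybrid and 36.6, 58.8 and 63.5 CPM in CAST, which overlap. Without Hoxb3 in the sum, every hybrid library lay above every CAST library. Hoxd4 was not part of these sums. Cell cycle genes were positive in 15 of 21, with a median of 0.37 and 0 called by edgeR, DESeq2 or limma-voom. At an edgeR unadjusted p under 0.05 the posterior Hox and cell cycle lists each held 3 genes.

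Markers of fibroblasts and mesenchyme had 14 positive members of 15 and a median of 1.15, and their sum, rounded like the other sums of lists, was 27510, 21240 and 5985 CPM in the hybrid and 10130, 8373 and 9850 CPM in CAST. Col1a1, the main fibrillar collagen chain, was at 8897, 808 and 311 CPM in the hybrid and 195, 2024 and 2686 CPM in CAST. Dcn, the matrix proteoglycan decorin, was at 998, 922 and 98.2 CPM against 43.0, 83.5 and 66.6 CPM. The lines overlapped for Col1a1 and not for Dcn, and neither passed (log2 fold change 1.03 ± 1.29 and 3.38 ± 0.99, adjusted p = 0.822 and 0.0919). The 1 call in the list was S100a4, a calcium-binding protein gene with 51.7% of its exonic bases overlapped, at 28.9, 106 and 15.9 CPM against 0.168 CPM or less. Extracellular matrix genes were positive in 25 of 28 with a median of 0.77, which was −0.12 with a replicate block and −1.57 without hybrid 1, where Fn1, the fibronectin gene, reached 20146 CPM. Fn1 was at 624 and 689.6 CPM in hybrid 2 and 3. Bcan, the brain proteoglycan brevican, rose at low levels: 2.55, 2.10 and 2.93 CPM against 0.103, 0.393 and 0.573 CPM (2.75 ± 0.59, adjusted p = 0.0220). Its call ended without 129 2, CAST 2, hybrid 1 or hybrid 3 (adjusted p = 0.0514, 0.0902, 0.0578 and 0.0655), with only the 6 libraries (0.0795) and with a replicate block (0.0729). Whether the share of mesenchymal cells has a part in these values was not tested.

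**Figure D5:**
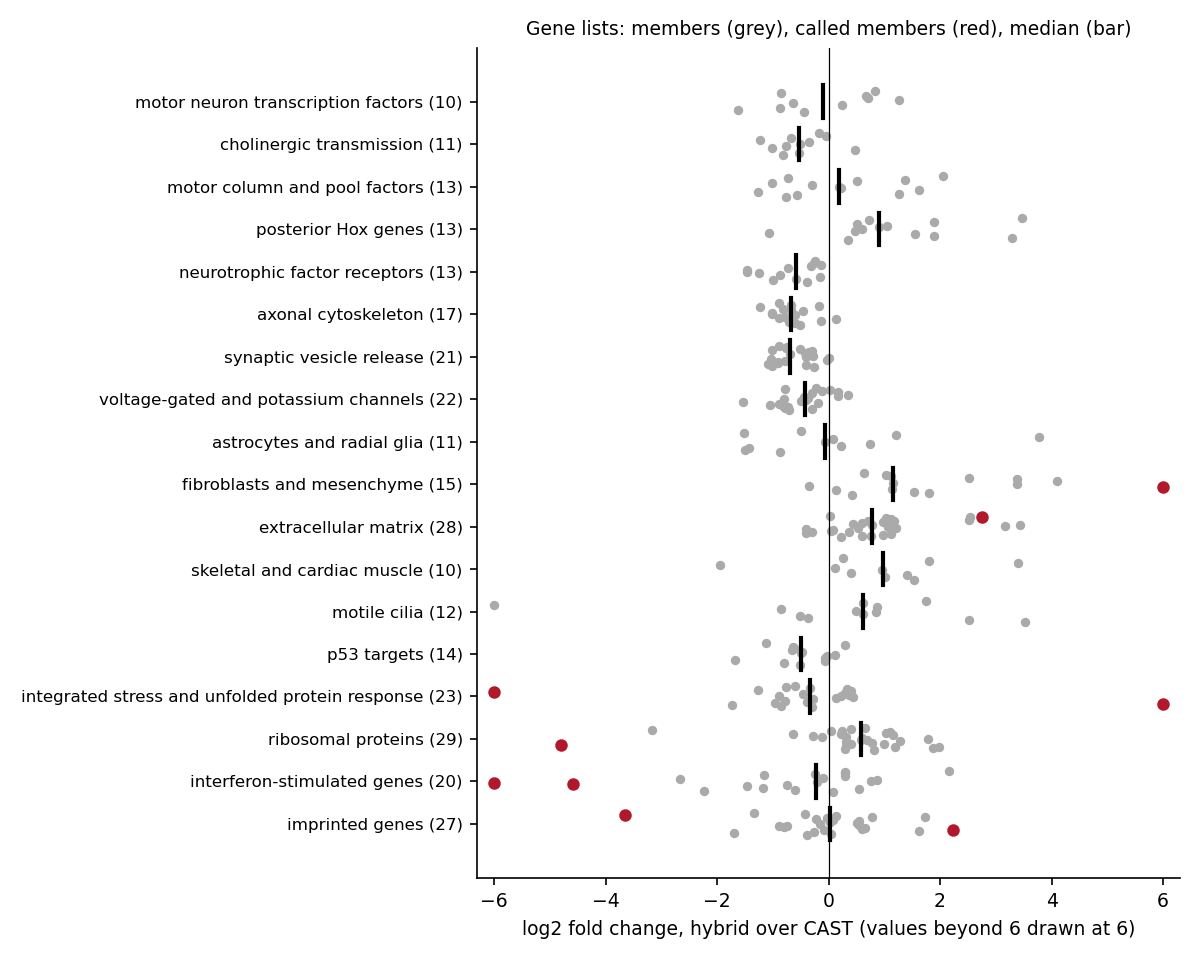
Log2 fold change, hybrid over CAST (values beyond 6 drawn at 6), of each tested member (grey) of 18 lists, with called members in red, the median as a bar and the number tested in parentheses. Medians of the axonal cytoskeleton and synaptic lists lie near −0.7 and that of fibroblast markers at 1.15, and the called members are few.

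Called members were scattered over the remaining lists. Hspb1, a small heat shock protein gene with 55.4% shared words, was at 11.2, 43.0 and 4.61 CPM in the hybrid and 0.516, 0.505 and 0.287 CPM in CAST (5.46 ± 0.87, adjusted p = 0.00523), with 0.517 to 0.778 CPM in 129. The call held in every alternative. Cx3cr1, the fractalkine receptor of microglia, was at 35.3, 19.1 and 31.6 CPM against 1.34, 0.112 and 0 CPM (6.03 ± 1.13, adjusted p = 0.0113, and 0.0503 without CAST 2). Of the 13 markers of microglia and blood, 2 were expressed enough to be tested and Cx3cr1 was the 1 called. Its annotated body runs over 5 coding genes.

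Interferon-stimulated genes held 2 lower calls. Isg15, a ubiquitin-like modifier, was at 0 in the hybrid and 22.2, 3.14 and 1.08 CPM in CAST (at least 81.9-fold lower, adjusted p = 0.0277), and its call ended without any one hybrid library (adjusted p = 0.0599 to 0.0674) and with only the 6 libraries (0.101). Mx1, an antiviral GTPase gene, was at 0.0708, 0.838 and 0.0699 CPM against 9.81, 8.25 and 1.94 CPM (−4.58 ± 1.09, adjusted p = 0.0372). It was at 0.345 CPM or less in 129, and its call ended without 129 2, 129 3, CAST 1, CAST 2, hybrid 1 or hybrid 3, with only the 6 libraries (adjusted p = 0.0938) and with a replicate block (0.0794). Lss, the lanosterol synthase of cholesterol synthesis, was at 39.8, 26.5 and 36.3 CPM against 84.3, 117 and 76.5 CPM (−1.44 ± 0.33, adjusted p = 0.0326), and its call ended without any one of 8 libraries, with only the 6 libraries (0.131), with a replicate block (0.132), with no filter (0.0594) and with a length offset (0.0831). The other genes of the cholesterol list leaned the same way, 1 of 17 being positive with a median of −0.42, and the positive one, Fdps, overlaps another gene over 26.7% of its exonic bases. Fdps was at 69.1, 233 and 144 CPM against 5.47, 4.38 and 2.44 CPM.

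Imprinted genes, where 1 parental copy is silent, were positive in 14 of 27 with a median of 0.03 that changed sign in 8 alternatives. Of the 16 without exon overlap, 6 were positive, their median was −0.12 and 0 were called. The 2 called members were Gnas, described above, and Rtl1, a retrotransposon-derived gene of the placenta with overlap on both strands, at 36.8, 13.7 and 26.3 CPM against 5.37, 7.24 and 3.66 CPM (2.24 ± 0.47, adjusted p = 0.0206). Ribosomal protein genes were positive in 24 of 29 with a median of 0.58. Their sum was 10650, 80590 and 15170 CPM in the hybrid and 48100, 8948 and 8422 CPM in CAST, highest in hybrid 2 and CAST 1, and the median turned to −0.85 without hybrid 2 and rose to 1.81 without CAST 1.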

How the data were processed

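Polyadenylated RNA was purified on columns with DNase and reverse transcribed from random hexamers, per the labels' protocols. The deposited matrix holds whole-number read counts per gene from the authors for 27071 genes in 9 libraries. STAR and mm10 are named in the submitters' processing notes. No STAR version, counting program, annotation or strand setting is given in the sources used here. Of all genes, 27031 matched GENCODE M21 (GRCm38) by identifier, from which exon overlap (at least 1 base, either strand) and shared 31-base words were computed. Another 40 did not match and were kept apart from both overlap classes.

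All 9 libraries entered 1 robust quasi-likelihood fit (edgeR 4.0.16, R 4.3.3) after a filter on low counts (minimum count 10, minimum total 15, proportion 0.7) with TMM scaling. The contrast was hybrid minus CAST, with Benjamini-Hochberg adjustment over 14839 genes and a threshold of 0.05. The script was tested on simulated data. DESeq2 1.42.0, limma 3.58.1 (voom) and the other alternatives are in the closing section. Genes were named by rule: the largest changes per direction among called, non-overlapping groups of at least 5 CPM, 1 or more per gene list, and fixed markers; others were chosen after their values were seen. Members, lists and this rule were chosen with earlier results of these data known. Bounds on folds use a floor of 3 counts over the group. Replicate numbers were not used as pairs in the main fit, and whether they mark pairs is not known. Some withheld items are not reported here.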

Additional observations from a re-analysis of the deposited data

How the results depend on the processing

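Of 223 recomputed summary values, 181 kept their direction and stayed within 1.5 times the reported count or 1 SD of the reported value, and 42 moved. DESeq2 called 483 higher and 306 lower genes without exon overlap, 174 lower genes with overlap, 357 higher and 167 lower distinct genes, and 59 list members. Of the 1597 genes it called, 887 were among the 891 of edgeR. With only the 6 hybrid and CAST libraries in the fit, these counts were 107, 71, 59, 55, 30 and 10, and 23 of 79 single genes recomputed lost their call. A minimum count of 50 gave 98 higher and 79 lower genes without overlap and 57 higher and 26 lower distinct genes. An offset for exon length gave 221 lower genes without overlap, 152 with overlap and 100 distinct. Counts summed over loci gave 34 higher and 13 lower loci, and a limit of at least 10% of exonic bases gave 61 lower genes with overlap and a median of 0.23.

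Leaving out 1 library at a time gave 93 to 200 higher and 83 to 159 lower genes without overlap, with 93 without CAST 3, 117 without CAST 2 and 83 without hybrid 3. With overlap it gave 349 to 470 higher and 77 to 110 lower, for distinct genes 49 to 137 higher and 35 to 80 lower, for list members 16 to 23 and for named genes 39 to 51 of 52. Medians ranged from −0.16 to −0.012 without overlap and from 0.026 to 0.25 with it, and the X difference from 0.31 to 0.50. The median without overlap was −0.0081 with no filter and 0.0027 without hybrid 2 and CAST 1 together, where that with overlap was 0.20. The latter was −0.046 when overlap with any annotated gene counted. The median of all genes moved by 0.129 without CAST 1 and by 0.122 without both.

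Same-numbered hybrid and CAST libraries deviated in opposite directions (r = −0.718, −0.517 and −0.112 over genes). Such correlations cannot tell whether libraries of the same number were prepared together, so pairing remains unknown. With a replicate block, 90 higher and 66 lower genes without overlap, 307 higher and 61 lower with overlap, 48 higher and 26 lower distinct genes and 9 list members were called, and 26 of 81 single genes lost their call.

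Genes that had not passed and changed sign were Chat, Olig2, Inhba, Gap43 and Atf3. Chat turned to 0.0006825 with DESeq2, 0.0006273 with RLE scaling, 0.033 at a minimum count of 50, 0.23 without CAST 1, 0.13 without hybrid 3 and 0.066 without hybrid 2 and CAST 1; its lowest value without 1 library was −0.29. Gap43 turned to 0.028 without CAST 1 and 0.090 without both, with −0.89 as its lowest. Atf3 ranged from −0.87 to 0.35 (without CAST 1), Olig2 from −0.33 (without hybrid 3) to 3.22, and Inhba from −1.83 (without hybrid 1) to 1.75, with −0.28 under the replicate block. The cause was not tested in any of these. The depth was 7763077 counts in the shallowest library, hybrid 2, and what it limits was not tested.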

Other observations

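Markers of the oligodendrocyte lineage were positive in 7 of 9 tested cases, and the median was 1.32 on the log2 scale (0.53 to 1.37 over the alternatives). Over the 7 members without exon overlap the median was 0.51, with 5 positive. Their summed level was 115.7, 109.3 and 135.3 CPM in hybrid 1 to 3 and 47.2, 59.1 and 47.2 CPM in CAST 1 to 3, without overlap. The 1 called member was Mog. Genes of retinoic acid signalling, which patterns the spinal cord, were positive in 12 of 15 with a median of 0.30 (0.20 to 0.65) and 0 called by edgeR, where 1 had an unadjusted p under 0.05. DESeq2 called 1 of them and limma-voom 0. Motile cilia genes were positive in 8 of 12 with a median of 0.62 (0.30 to 1.58). Clustered protocadherins, cell adhesion proteins that give neurons a surface identity, were positive in 7 of 27 with a median of −0.71 (−1.11 to −0.26). Only 8 of them had no exon overlap, of which 0 were positive, with a median of −0.85. The 1 call in the list was higher in the hybrid. Pcdhgc5, with 39.6% of its exonic bases overlapped, was at 340, 89.7 and 211 CPM against 1.03, 9.66 and 20.4 CPM (4.36 ± 0.98, edgeR adjusted p = 0.0280). Its call ended in several alternatives, with a highest adjusted p of 0.113. The list sums, 837, 217 and 532 CPM in the hybrid and 93.5, 388 and 485 CPM in CAST, overlap.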
